A study of Mus musculus with 36 samples.

Results

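The 9 genes of the follistatin, myostatin and activin system were described in primary mouse cells, taken from a table of 54347 genes by the mouse symbols *Fst*, *Fstl1*, *Fstl3*, *Mstn*, *Gdf11*, *Inhba*, *Inhbb*, *Acvr2a* and *Acvr2b*. Cultured C57Bl/6 adipocytes (from stromal cells of inguinal fat, 3 to 4 male mice pooled, differentiation judged by eye), bone marrow macrophages (grown with L929-conditioned medium), skeletal myotubes (called myocytes below) and hepatocytes (C57BL/6NHsd in the study's methods) were exposed for 6 h to PBS as the control, to 5 mM βOHB ((R)-3-hydroxybutyrate, sodium salt) or to 5 mM sodium butyrate. The ages of the mice are not given in the sources used here, and the medium during exposure was shared by adipocytes and macrophages and was another for myotubes and for hepatocytes. Each of the 12 groups had 3 libraries, which gave 36 in all, and nothing in the labels says whether the 3 came from separate cultures or animals, so p-values measure the spread between these libraries only. The 9 genes were chosen by their butyrate response in myocytes, where the level of *Fst* was known to be low, so that comparison is given as a description and without a test.

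Activins are dimers of the inhibin β subunits that *Inhba* and *Inhbb* encode. Together with myostatin (*Mstn*) and its close relative GDF11 they bind the type II receptors encoded by *Acvr2a* and *Acvr2b*, which recruit a type I receptor and lead to phosphorylation of SMAD2 and SMAD3. Follistatin (*Fst*) and follistatin-like 3 (*Fstl3*) bind these ligands outside the cell and keep them from the receptor, and in skeletal muscle this balance is known for setting muscle mass, since myostatin limits growth and follistatin opposes it. Follistatin-like 1 (*Fstl1*) is a more distant relative, secreted mainly by mesenchymal cells. Butyrate is a short-chain fatty acid known to inhibit histone deacetylases, and βOHB, a ketone body, carries the same carbon chain with an added hydroxyl group on the third carbon.

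Total estimated counts per library lay between 18366289 and 23221473. Levels are given as TMM-scaled CPM, the read count relative to library size, and differences as log2 fold changes with their standard error (SE) from 1 edgeR fit over all 36 libraries. A gene was called at a Benjamini-Hochberg adjusted p below 0.05 over all 15340 genes tested, which were those above 1 CPM in at least 6 libraries. All 9 genes passed this filter, *Mstn* through the myocyte libraries alone. The labelled cell types carried their own markers in every library: 8 myotube markers summed to 15680 to 32720 CPM in myocytes, 6 adipocyte markers to 6528 to 9045 CPM in adipocytes, 7 macrophage markers to 10790 to 17460 CPM in macrophages and 6 hepatocyte markers to 39610 to 50430 CPM in hepatocytes. Fibroblast markers (6 genes, *Col1a1* and *Col3a1* leading) were also present in adipocyte (5008 to 8880 CPM), macrophage (950 to 1687 CPM) and myocyte (1105 to 1630 CPM) cultures, and in hepatocytes reached 12.5 CPM at most. In such bulk samples, fewer cells of a type and less RNA per cell cannot be told apart.

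The genes differed first in where they were expressed. Per kilobase of annotated exon, the control level of *Fst* was highest in myocytes at 101 ± 11.4 CPM per kb (SD, n = 3), against 16.9 ± 1.86 in adipocytes, 14.8 ± 1.08 in hepatocytes and 2.35 ± 0.125 in macrophages. The libraries of adipocytes and hepatocytes overlapped in this order and those of the other neighbours did not. On the same scale *Inhba* led the ligand genes among the 9 (*Inhba*, *Inhbb*, *Gdf11* and *Mstn*) in each cell type, and other ligand genes were not ranked. It was at 62.2 ± 6.48 CPM per kb in myocytes, 54.9 ± 3.58 in macrophages, 47.1 ± 13.2 in adipocytes and 6.80 ± 0.493 in hepatocytes. Only hepatocytes stood apart from their neighbour in this order. The control level of *Fst* per length was above that of *Inhba* in myocytes and hepatocytes and below it in adipocytes and macrophages. The remaining ligands were lower, as *Gdf11* reached 17.8 ± 1.05 CPM per kb in control myocytes and at most 2.15 ± 0.144 in the other cell types, and *Inhbb* led in adipocytes at 10.0 ± 0.842. *Acvr2a* ranged from 2.33 ± 0.226 CPM per kb in macrophages to 14.1 ± 0.546 in myocytes, with no overlap between any neighbours. *Acvr2b* lay between 0.527 ± 0.0339 and 0.718 ± 0.135 CPM per kb in all 4 cell types. The highest level of all 9 genes was that of *Fstl1* in adipocytes, 165 ± 7.51 CPM per kb, and it was lowest in hepatocytes at 0.743 ± 0.115.

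**Figure D1:**
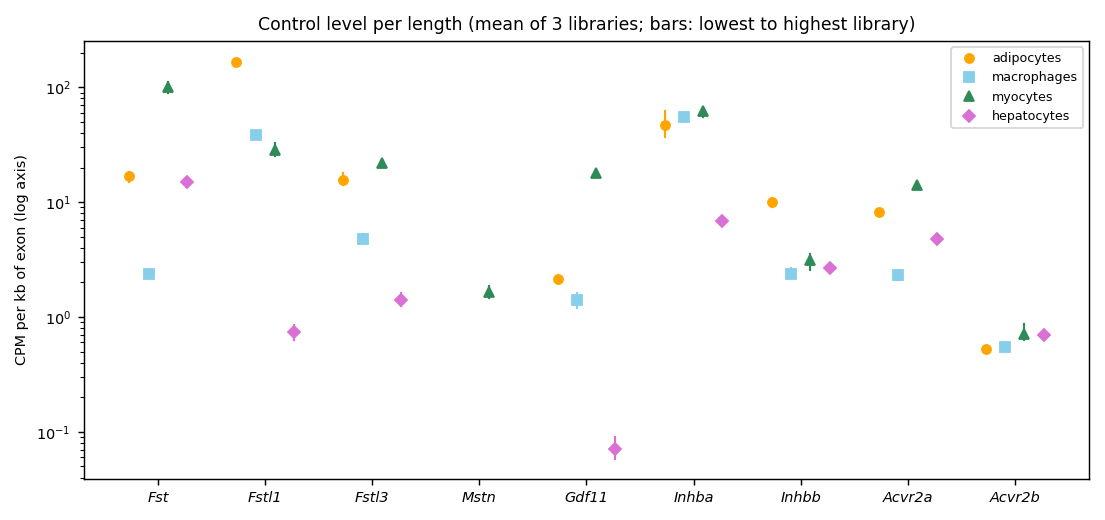
Control level of the 9 genes in CPM per kb of exon (log axis) for adipocytes, macrophages, myocytes and hepatocytes, with symbols at the mean of 3 libraries and bars from the lowest to the highest library. *Fst*, *Gdf11* and *Acvr2a* are highest in myocytes, *Fstl1* and *Inhbb* in adipocytes, and *Mstn* is drawn for myocytes alone because the other cells held 1 count in all.

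The promoters of 4 of these genes are shown because their levels below went in opposite directions under butyrate (*Gdf11* and *Fstl3* against *Inhba*) or were restricted to one cell type (*Mstn*). Each is the 250 bases before the RefSeq start on GRCm38.p6, written 5′ to 3′ on the gene's own strand, and RefSeq windows were matched for 8 of the 9 genes, the exception being *Fst*. Capitals mark GGGCGG, the letters of a GC box, and TATAAA, the letters of a TATA box, on either strand, with overlaps merged, and for *Mstn* CANNTG, the E-box letters bound by myogenic factors, and TATAAA.
Gdf11 (chr10:128891719-128891968, minus strand): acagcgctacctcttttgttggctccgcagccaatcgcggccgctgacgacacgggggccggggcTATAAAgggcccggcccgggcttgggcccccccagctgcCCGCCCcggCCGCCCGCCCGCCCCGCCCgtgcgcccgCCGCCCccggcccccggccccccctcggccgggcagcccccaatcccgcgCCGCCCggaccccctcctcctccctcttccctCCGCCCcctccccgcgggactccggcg
Fstl3 (chr10:79777024-79777273, plus strand): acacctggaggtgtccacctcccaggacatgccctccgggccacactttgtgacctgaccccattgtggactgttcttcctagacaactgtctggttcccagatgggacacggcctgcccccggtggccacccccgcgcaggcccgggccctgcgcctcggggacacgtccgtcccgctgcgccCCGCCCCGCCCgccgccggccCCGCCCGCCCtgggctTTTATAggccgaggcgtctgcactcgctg
Inhba (chr13:16011601-16011850, plus strand): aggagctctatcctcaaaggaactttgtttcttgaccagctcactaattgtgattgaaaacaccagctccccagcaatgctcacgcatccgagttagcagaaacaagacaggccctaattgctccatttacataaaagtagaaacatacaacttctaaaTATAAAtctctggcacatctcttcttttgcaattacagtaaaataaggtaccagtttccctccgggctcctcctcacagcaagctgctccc
Mstn (chr1:53061390-53061639, plus strand): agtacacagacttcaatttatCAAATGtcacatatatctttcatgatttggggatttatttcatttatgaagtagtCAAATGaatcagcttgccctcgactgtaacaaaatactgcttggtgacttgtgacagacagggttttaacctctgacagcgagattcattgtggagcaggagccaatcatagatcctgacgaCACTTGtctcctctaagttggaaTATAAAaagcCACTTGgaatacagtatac
Counting overlapping matches, GGGCGG occurred 8 times before *Gdf11*, 4 times before *Fstl3*, 3 times before *Acvr2b*, 2 times each before *Fstl1* and *Acvr2a*, 1 time before *Inhbb* and not before *Inhba* or *Mstn*, and it is found in 32.7% of 32851 such windows. On the gene's own strand TATAAA lay 29 bases before the start of *Mstn*, 91 before *Inhba* and 185 before *Gdf11*. For *Fstl3* it lay 29 bases before the start on the opposite strand, printed as TTTATA. On either strand it is found in 12.4% of windows. CANNTG occurred 4 times before *Mstn*, 3 times before *Fstl3* and 1 time before *Gdf11*, and is found in 66.2% of windows. These are matches of letters, not measured binding.

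In myocytes *Fst* had the largest difference of the 9 genes under butyrate. Its level was 410, 464 and 514 CPM in the control libraries, 449, 342 and 475 CPM with βOHB, and 29.7, 23.5 and 18.6 CPM with butyrate. All 3 butyrate libraries lay far below every other myocyte library, at a level 19.3-fold lower than the controls (log2 fold change −4.27, SE 0.133), and 30 of the 15340 genes tested had a larger fall. *Fst* is located on chromosome 13 of GRCm38 at 114452290 to 114458951 on the minus strand (ENSMUSG00000021765, 3 exon blocks), and an antisense gene that shares 115 exonic bases with it, Gm47040, was at most at 0.0526 CPM in any library. *Gdf11* was the other gene beyond 2-fold, with 67.9, 73.1 and 76.4 CPM in controls and 185, 189 and 198 CPM with butyrate, a 2.64-fold higher level without overlap (log2 fold change 1.40, SE 0.072). Of all genes tested, 22.4% were beyond 2-fold in this comparison, which chose the genes, so that nothing is read from the count and its other values are a description.

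The other 7 genes differed by less than 2-fold in butyrate-treated myocytes. *Mstn*, the gene most restricted to muscle among them, was at 3.94, 4.49 and 5.01 CPM in controls, 4.95, 5.68 and 6.38 CPM with βOHB and 3.82, 3.92 and 3.48 CPM with butyrate, and the highest butyrate library lay just below the lowest control (log2 fold change −0.26, SE 0.182). *Fstl3* was at 49.1, 54.2 and 56.4 CPM in controls and 62.7, 57.4 and 56.1 CPM with butyrate. *Inhba* was at 434, 353 and 407 CPM in controls and 250, 241 and 446 CPM with butyrate, and *Inhbb* at 14.9, 10.9 and 13.8 CPM in controls and 6.82, 7.15 and 13.7 CPM with butyrate. For both subunits the third butyrate library lay within or above the controls and the other two below them. The same library held the highest *Fstl1* level of the 9 myocyte libraries, 210 CPM against 125 to 160 CPM in controls, and the lowest *Acvr2a* level, 52.7 CPM against 78.0 to 83.5 CPM.

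That library also stood apart in cell type markers. Its fibroblast markers summed to 1630 CPM against 1105 to 1469 CPM in the other 8 myocyte libraries, and its myotube markers to 15680 CPM against 21040 and 21600 CPM in the other butyrate libraries and 24010 to 29270 CPM in controls. Without it the log2 fold change was −4.12 (SE 0.138) for *Fst*, 1.37 (SE 0.075) for *Gdf11*, −0.70 (SE 0.166) for *Inhba* and −0.92 (SE 0.129) for *Inhbb*, compared with −0.35 (SE 0.182) for *Inhba* and −0.53 (SE 0.162) for *Inhbb* with all libraries. For *Fstl1* the value went from 0.18 (SE 0.13) to −0.08 (SE 0.108). Markers of other cells moved with the treatment too: 4 myoblast markers summed to 712 to 751 CPM in control and 188 to 223 CPM in butyrate myocytes, macrophage markers to 120 to 317 CPM and 16.9 to 78.2 CPM, and hepatocyte markers to at most 0.176 CPM and 35.8 to 655 CPM. Their part in these values was not tested.

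**Figure D2:**
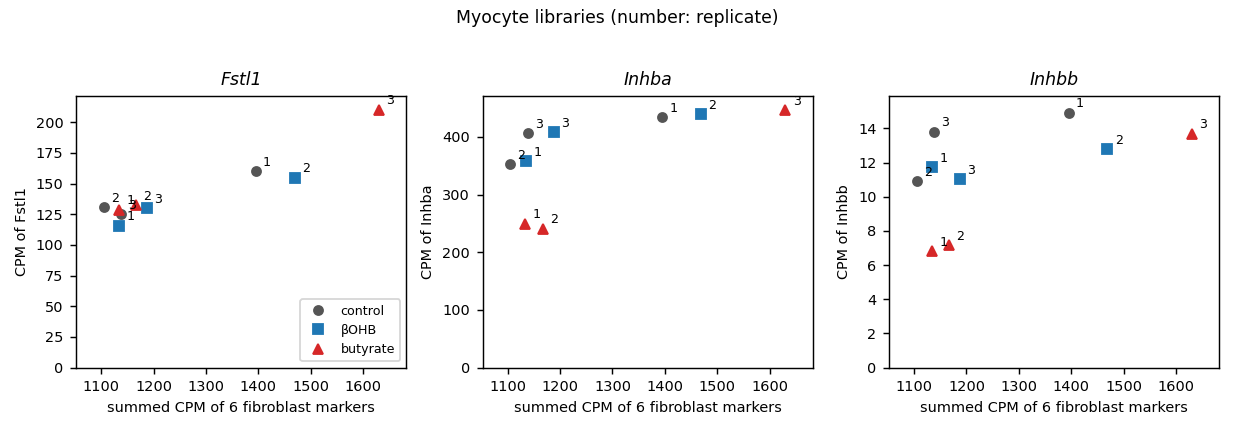
Level of *Fstl1*, *Inhba* and *Inhbb* (CPM) in the 9 myocyte libraries against the summed CPM of 6 fibroblast markers, with symbols for control, βOHB and butyrate and the replicate number beside each. The third butyrate library lies at the far right at 1630 CPM of fibroblast markers, with *Fstl1* at 210, *Inhba* at 446 and *Inhbb* at 13.7 CPM.

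In the other 3 cell types *Fst* also fell under butyrate. Adipocytes went from 84.8, 79.8 and 68.2 CPM to 8.86, 7.95 and 7.62 CPM, a 9.54-fold lower level (log2 fold change −3.25, SE 0.143, edgeR adjusted p = 6.72e-18), and 25 genes of those tested had a larger fall. Hepatocytes went from 72.5, 69.0 and 62.8 CPM to 16.7, 16.5 and 17.5 CPM (log2 fold change −2.01, SE 0.135, adjusted p = 5.07e-14). Macrophages, which held the least, went from 10.9, 11.3 and 10.2 CPM to 2.56, 3.66 and 3.50 CPM (log2 fold change −1.72, SE 0.184, adjusted p = 1.44e-09). Treated and control libraries did not overlap in any of them. The fall in adipocytes was larger than that in macrophages (difference of log2 fold changes −1.53, SE 0.243, adjusted p = 9.04e-06) and than that in hepatocytes (difference, hepatocytes minus adipocytes, 1.24, SE 0.197, adjusted p = 6.35e-06), while hepatocytes and macrophages differed by −0.29 with a 95% interval from −0.77 to 0.20.

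**Figure D3:**
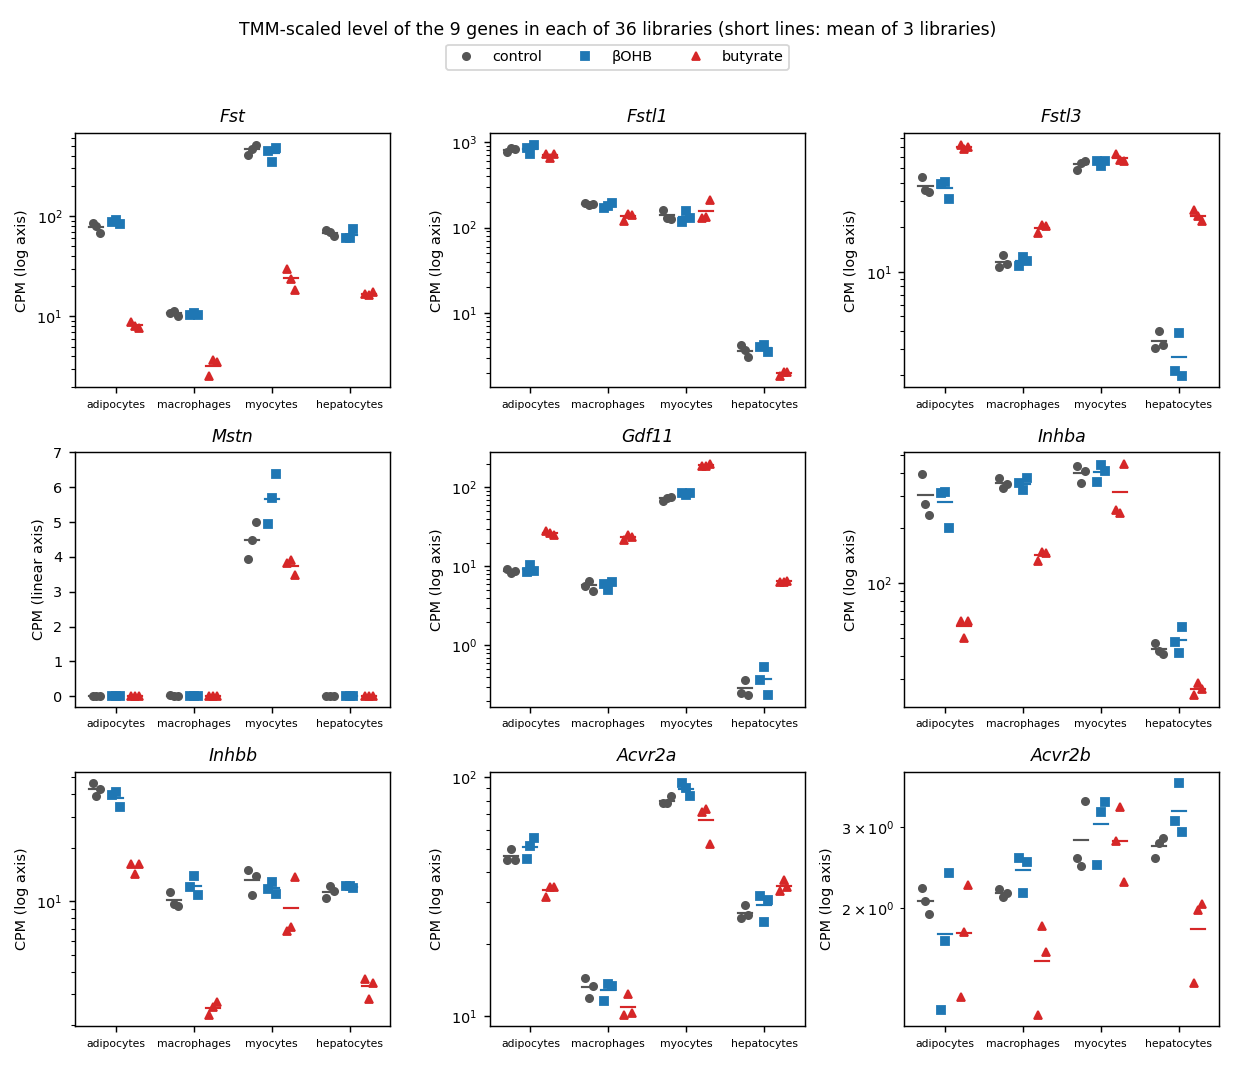
TMM-scaled level (CPM, log axis except for *Mstn*) of each gene in every library, by cell type and treatment, with short lines at the mean of 3 libraries. The butyrate libraries lie below the controls for *Fst* and above them for *Gdf11* in all 4 cell types, and no difference between βOHB and control was called for any of them.

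*Gdf11*, which encodes the ligand most like myostatin, had the largest rise of the 9 genes under butyrate. It rose from 9.35, 8.18 and 8.65 CPM to 28.2, 26.9 and 25.1 CPM in adipocytes (log2 fold change 1.61, SE 0.088, edgeR adjusted p = 7.33e-16). In macrophages it rose from 5.72, 6.60 and 4.88 CPM to 21.4, 25.2 and 23.5 CPM (log2 fold change 2.03, SE 0.094, adjusted p = 1.08e-17). Hepatocytes had little *Gdf11* as controls, 0.251, 0.369 and 0.236 CPM from 4, 6 and 4 counts, and 6.41, 6.34 and 6.60 CPM with butyrate (log2 fold change 4.47, SE 0.217, adjusted p = 2.66e-17). The rise in hepatocytes was larger on the log2 scale than in adipocytes (difference 2.86, SE 0.271, adjusted p = 7.2e-10) and than in macrophages (difference 2.44, SE 0.282, adjusted p = 2.56e-08), although its CPM stayed the lowest of the 4 cell types. The adipocyte rise was smaller than that of macrophages by 0.42 (SE 0.13, adjusted p = 0.0114), and without the third macrophage control library the adjusted p of this difference was 0.069. *Gdf11* spans 128882295 to 128891718 on the minus strand of chromosome 10 and *Mstn* 53061640 to 53068079 on the plus strand of chromosome 1, and the longest run of identical bases between their annotated transcripts was 12.

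*Mstn* was a gene of the myocyte libraries. In the other 27 libraries 1 count was found in total, in a macrophage control, and the limit that a count of 0 allows (3 counts) was 0.117 to 0.188 TMM-scaled CPM by library, counting error only. No fold change is given for it there.

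The other antagonist of ligand binding, *Fstl3*, went the opposite way to *Fst*. In hepatocytes it rose from 3.07, 3.99 and 3.19 CPM to 26.2, 23.7 and 22.1 CPM, a 7.02-fold higher level (log2 fold change 2.81, SE 0.153, edgeR adjusted p = 3.57e-16). In adipocytes it rose from 43.7, 35.8 and 34.4 CPM to 72.3, 68.0 and 69.3 CPM (log2 fold change 0.88, SE 0.105, adjusted p = 1.53e-08), and in macrophages from 10.8, 12.9 and 11.3 CPM to 18.4, 20.6 and 20.4 CPM (log2 fold change 0.77, SE 0.121, adjusted p = 2.02e-06). Butyrate libraries lay above every control library in these cell types, whereas in myocytes, the cells with the highest control level, the third butyrate library lay just below the highest control. The hepatocyte rise exceeded that in adipocytes by 1.93 (SE 0.19, adjusted p = 1.4e-09) and that in macrophages by 2.05 (SE 0.2, adjusted p = 9.36e-10), and between adipocytes and macrophages the difference was 0.11 with a 95% interval from −0.21 to 0.44. *Fstl3* (chromosome 10, 79777272 to 79782630, plus strand) shares 1157 exonic bases with *Prss57* on the opposite strand, and the strand of the libraries is not stated. By the same assignment of reads *Prss57* was at most at 0.224 CPM in any library, and the part of shared reads was not tested.

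The activin subunit genes both fell in the 3 cell types. *Inhba* went from 396, 271 and 235 CPM to 61.7, 50.4 and 62.5 CPM in adipocytes (log2 fold change −2.37, SE 0.195, edgeR adjusted p = 7.73e-12), from 375, 329 and 349 CPM to 132, 147 and 145 CPM in macrophages (−1.31, SE 0.186, adjusted p = 3.33e-07) and from 47.0, 42.5 and 41.0 CPM to 24.5, 28.7 and 26.5 CPM in hepatocytes (−0.71, SE 0.206, adjusted p = 0.00341). *Inhbb* went from 46.2, 39.0 and 42.8 CPM to 16.2, 14.3 and 16.2 CPM in adipocytes (log2 fold change −1.46, SE 0.146, adjusted p = 5.01e-10), from 11.3, 9.67 and 9.42 CPM to 2.30, 2.53 and 2.70 CPM in macrophages (−2.01, SE 0.199, adjusted p = 2.96e-10) and from 10.5, 12.2 and 11.4 CPM to 3.65, 2.82 and 3.48 CPM in hepatocytes (−1.78, SE 0.203, adjusted p = 5.24e-09). No treated library reached a control library for either gene. The size of the fall in *Inhba* depended on the cell type, since it was larger in adipocytes than in macrophages (difference −1.06, SE 0.263, adjusted p = 0.00188) and than in hepatocytes (hepatocytes minus adipocytes 1.66, SE 0.28, adjusted p = 1.57e-05). For *Inhbb* no difference between these cell types was called, and the largest, 0.56 between adipocytes and macrophages, had a 95% interval from 0.04 to 1.07 (adjusted p = 0.0822). It was called without a filter on low counts (0.53, adjusted p = 0.0186) and with only the cell types compared (0.54, adjusted p = 0.0143). The same settings called the difference for *Inhba* between hepatocytes and macrophages (adjusted p = 1.84e-05 and 0.000535), which was 0.60 with an adjusted p of 0.0791 in the fit over all libraries.

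Of the type II receptor genes, *Acvr2a*, the more abundant, fell in adipocytes from 45.1, 50.0 and 45.0 CPM to 31.4, 34.6 and 34.7 CPM (log2 fold change −0.47, SE 0.104, edgeR adjusted p = 0.000217) and rose in hepatocytes from 25.6, 29.1 and 26.4 CPM to 33.4, 37.1 and 34.6 CPM (0.37, SE 0.111, adjusted p = 0.00399), and this opposite direction was a called difference (0.85, SE 0.152, adjusted p = 3.6e-05). *Acvr2a* shares 446 exonic bases with *Orc4* on the opposite strand, which was at 31.0 to 41.7 CPM in control and 69.4 to 79.0 CPM in butyrate hepatocytes and at 46.6 to 51.9 CPM and 62.0 to 65.7 CPM in adipocytes, so reads of the shared stretch cannot be told apart without strand. In macrophages the libraries overlapped, 14.4, 11.9 and 13.4 CPM against 10.1, 12.4 and 10.2 CPM, and the call (log2 fold change −0.28, SE 0.124, adjusted p = 0.0499) was lost in 11 of the 15 alternative analyses, where the log2 fold change was −0.05 by library totals alone and −0.20 to −0.28 otherwise. Its butyrate response in hepatocytes differed from that in macrophages (difference 0.65, SE 0.166, adjusted p = 0.0018).

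*Acvr2b* lay between 1.17 and 3.74 CPM in every library, and its fall was called in hepatocytes alone, from 2.57, 2.77 and 2.84 CPM to 1.38, 1.98 and 2.04 CPM (log2 fold change −0.60, SE 0.228, edgeR adjusted p = 0.0226). That call was lost without the third control library (adjusted p = 0.0585) or the first butyrate library (adjusted p = 0.129). In macrophages the value was −0.48 (95% interval −0.94 to −0.03, adjusted p = 0.0568), called only without the second butyrate library (adjusted p = 0.0368). In adipocytes it was −0.22 (95% interval −0.67 to 0.23).

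*Fstl1* fell in macrophages from 195, 183 and 188 CPM to 120, 144 and 141 CPM (log2 fold change −0.48, SE 0.13, edgeR adjusted p = 0.00178) and in hepatocytes from 4.20, 3.69 and 3.07 CPM to 1.85, 2.08 and 2.04 CPM (−0.87, SE 0.271, adjusted p = 0.00594). Scaling by library totals alone, which moved the median of all genes by 0.20 in macrophages, left −0.26 there (adjusted p = 0.108), and limma-voom gave −0.85 in hepatocytes (adjusted p = 0.14). In adipocytes its libraries read 767, 839 and 819 CPM in controls and 731, 652 and 721 CPM with butyrate, a difference of −0.20 with a 95% interval from −0.46 to 0.06 that was called only without a filter on low counts (adjusted p = 0.0131). Markers of fibroblasts, cells that secrete *Fstl1*, summed to 1489 to 1635 CPM in control and 950 to 1425 CPM in butyrate macrophages. The sums were 9.81 to 12.5 CPM and 7.50 to 7.82 CPM in hepatocytes, and 5494 to 6320 CPM and 5008 to 6511 CPM in adipocytes. *Col1a1* and *Col3a1* made up most of each sum. *Thy1* rose from 0.806 to 1.38 CPM to 4.6 to 7.4 CPM in macrophages and from 122 to 133 CPM to 155 to 190 CPM in adipocytes. In hepatocytes it rose from at most 0.0615 CPM to 0.693 to 0.960 CPM. *Pdgfra* went from 163 to 218 CPM to 105 to 112 CPM in adipocytes and from 0.709 to 0.983 CPM to 1.5 to 1.7 CPM in hepatocytes. The part of these markers in the *Fstl1* values was not tested.

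Cell type markers moved with butyrate in these cultures as well. In adipocytes the 6 adipocyte markers summed to 8347 to 9045 CPM in controls and 6528 to 7873 CPM with butyrate. *Fabp4* made up most of that sum, at 5584 to 6073 CPM and 5071 to 6330 CPM, while *Plin1* went from 873 to 937 CPM in controls to 339 to 410 CPM, *Cidec* from 394 to 466 CPM to 181 to 218 CPM and *Lipe* from 716 to 770 CPM to 408 to 488 CPM. In the same adipocytes the 4 endothelial markers (*Pecam1*, *Cdh5*, *Kdr* and *Tek*) summed to 176 to 202 CPM and 117 to 134 CPM, the 7 macrophage markers to 304 to 366 CPM and 272 to 304 CPM, and the 4 stellate cell markers, nearly all *Pdgfrb*, to 250 to 270 CPM and 85.7 to 94.2 CPM. In macrophages their own 7 markers summed to 17300 to 17460 CPM and 10790 to 11340 CPM, the 8 myotube markers to 6.95 to 14.3 CPM and 20.9 to 64.7 CPM, the stellate cell markers, again mostly *Pdgfrb*, to 62.2 to 67.8 CPM and 20.5 to 28.8 CPM, and the adipocyte markers to 98.3 to 105 CPM and 82.5 to 92.3 CPM. In hepatocytes the 6 hepatocyte markers summed to 43470 to 45360 CPM and 47850 to 50430 CPM. *Alb* made up most of that sum, at 27320 to 29190 CPM and 32770 to 35160 CPM, while *Apoa1* was at 5546 to 5630 CPM and 4345 to 4856 CPM. The adipocyte markers summed there to 17.2 to 19.9 CPM and 58.0 to 60.1 CPM, the myotube markers to 28.1 to 29.2 CPM and 43.7 to 48.7 CPM, the endothelial markers to 64.6 to 72.0 CPM and 19.7 to 23.3 CPM, and the 4 stellate cell markers to 13.0 to 20.4 CPM and 18.2 to 20.8 CPM. Most of that last sum was *Reln*, at 8.02 to 16.2 CPM and 16.5 to 19.4 CPM, while *Des* was at 2.58 to 3.51 CPM and 1.19 to 1.80 CPM and *Pdgfrb* at 1.19 to 1.42 CPM and 0.06 to 0.265 CPM. The part of these shifts in the values of the 9 genes was not tested.

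*Mstn* was too low to compare outside myocytes, so only the other 8 genes could be called there. In counts, butyrate changed 6 of the 9 genes in adipocytes (2 raised, 4 lowered). In macrophages it changed 7 (2 raised, 5 lowered, or 2 and 3 scaled by library totals alone), among them *Acvr2a* at an edgeR adjusted p of 0.0499. In hepatocytes it changed 8 (3 raised, 5 lowered, or 2 and 2 at an unadjusted P below 0.001). These shares stand against a high background, as 61.0%, 65.0% and 63.5% of all genes tested were called in those cell types. The raised part of that background was 30.7%, 31.9% and 31.0% and the lowered part 30.3%, 33.2% and 32.4%. Beside this background the counts are no result about the 9 genes as a group. The median log2 fold change over the 8 genes with reads was −0.35 in adipocytes, −0.48 in macrophages and −0.66 in hepatocytes, beside 0.00, 0.00 and −0.01 over all genes tested. In myocytes it was −0.26 over the 9 genes, a description only, because that comparison chose the genes.

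The βOHB comparisons, which share their controls with those of butyrate, gave no call for any of the 9 genes. The background was low as well: 2.91% of the genes tested were called in myocytes, 0.00652% each in adipocytes and hepatocytes and 0% in macrophages, and 358 genes had an unadjusted p below 0.05 in macrophages, where limma-voom called 0 and DESeq2 called 2. Limma-voom and DESeq2 also called 0 of the 9 genes in myocytes and 0 of the other 8 elsewhere, where *Mstn* was too low to compare, and an unadjusted p below 0.05 was reached by *Gdf11* in myocytes alone, with 84.3, 79.3 and 84.4 CPM against 67.9 to 76.4 CPM in controls (log2 fold change 0.19, 95% interval 0.04 to 0.34, edgeR adjusted p = 0.202). In myocytes 13.7% of all genes had such a p, so 1 of the 9 is near the background. Without the third βOHB library, whose hepatocyte markers summed to 27.2 CPM against 0.138 and 0.0444 CPM in the other βOHB libraries, the value was 0.17 (adjusted p = 0.387). In the same βOHB and control myocytes the 8 myotube markers summed to 30100 to 32720 CPM and 24010 to 29270 CPM, and the 7 macrophage markers to 44.6 to 119 CPM and 120 to 317 CPM, and their part in this value was not tested. For *Fst* the βOHB difference was −0.13 (95% interval −0.36 to 0.10) in myocytes, 0.17 (−0.07 to 0.41) in adipocytes, −0.07 (−0.32 to 0.18) in hepatocytes and −0.04 (−0.36 to 0.28) in macrophages. For *Mstn* in myocytes it was 0.34 (95% interval −0.04 to 0.72). The interval was widest for *Gdf11* in hepatocytes, from −0.42 to 1.25, at a level of 0.234 to 0.526 CPM. The βOHB response of myocytes minus the mean of the other 3 cell types was called for 0 of the 8 genes with reads outside myocytes by edgeR, limma-voom and DESeq2. None of the 8 had an unadjusted p below 0.05, which 10.9% of all genes had, and 1.06% of all genes were called. *Mstn* was not compared.

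**Figure D4:**
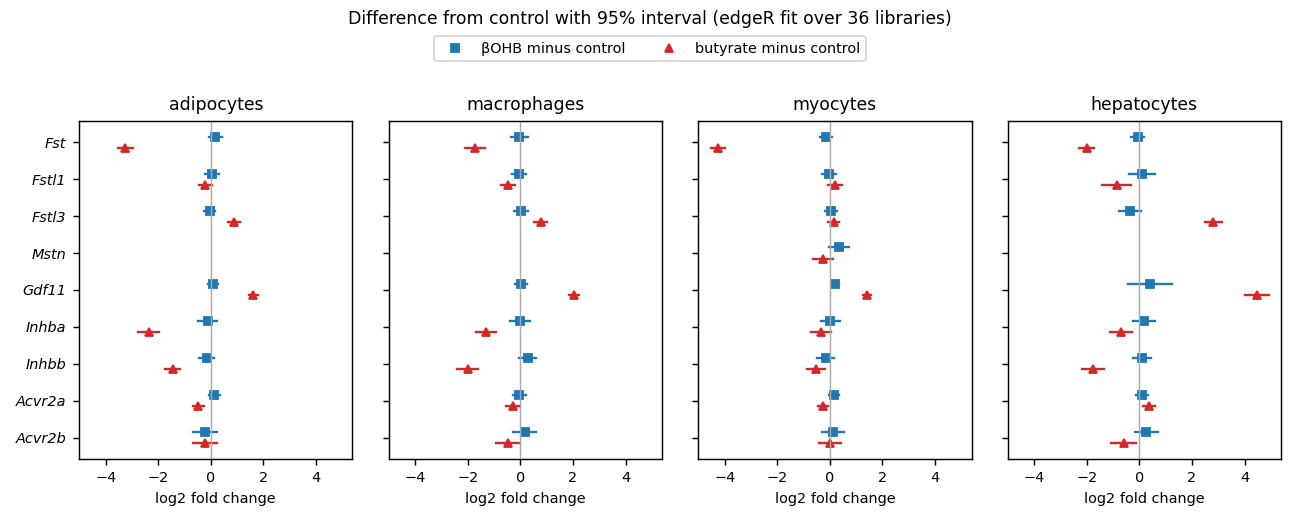
Log2 fold change against control with its 95% interval for each gene and cell type, squares for βOHB and triangles for butyrate. The βOHB values lie between −0.35 and 0.41, and the butyrate values run from −4.27 for *Fst* in myocytes to 4.47 for *Gdf11* in hepatocytes.

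At the matched dose of 5 mM and time of 6 h, butyrate and βOHB, which differ by the hydroxyl group, were also compared directly. The difference, butyrate minus βOHB, was called for 6 of the 9 in adipocytes, 7 in macrophages and 8 in hepatocytes, where *Mstn* was too low to compare. Of all genes 59.5%, 64.7% and 63.5% were called, and these counts are no result about the 9 genes as a group. The difference was −3.43 (SE 0.144, edgeR adjusted p = 2.25e-18) for *Fst* in adipocytes, −1.69 (SE 0.185, adjusted p = 2.55e-09) in macrophages and −1.94 (SE 0.135, adjusted p = 1.11e-13) in hepatocytes. For *Gdf11* it was 1.54 (SE 0.088, adjusted p = 2.6e-15), 2.01 (SE 0.094, adjusted p = 1.49e-17) and 4.06 (SE 0.198, adjusted p = 2.91e-17) in the same order. No difference between the compounds was called for *Fstl1* in adipocytes (−0.24, 95% interval −0.50 to 0.02), for *Acvr2b* in adipocytes (0.01, 95% interval −0.45 to 0.48) and for *Acvr2a* in macrophages (−0.23, 95% interval −0.49 to 0.02). That of *Fstl1* was called without a filter on low counts (edgeR adjusted p = 0.00316), with only the adipocyte libraries (adjusted p = 0.0376) and without the second βOHB library (adjusted p = 0.0341), and that of *Acvr2a* without the second butyrate library (adjusted p = 0.0488). In myocytes, given as a description, the difference was −4.14 (SE 0.133) for *Fst*, 1.21 (SE 0.072) for *Gdf11* and −0.60 (SE 0.18) for *Mstn*, whose βOHB libraries all lay above its butyrate libraries.

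The butyrate responses of the 9 genes were compared between cell types by interaction terms. Between hepatocytes and adipocytes 5 of the 9 differed, beside 41.4% of all genes tested, and all 5 differences were positive. Those of *Fstl1* (−0.67), *Acvr2b* (−0.38) and *Inhbb* (−0.32) were negative and not called, and *Mstn* was not compared. The difference of *Fstl1* was called by DESeq2 (adjusted p = 0.0271). By edgeR it was called without a filter on low counts (adjusted p = 0.0146) and with only the cell types compared (adjusted p = 0.0131). Between hepatocytes and macrophages 3 differed, beside 44.4%, and between adipocytes and macrophages 3 differed, beside 36.6%. *Gdf11* was called in each of these comparisons.

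The surrounding pathway was followed in 53 further genes for ligands, receptors, antagonists, proprotein convertases, SMADs and targets of activin, TGF-β and BMP signalling, of which 48 passed the filter. Butyrate raised 6 and lowered 23 in adipocytes, raised 9 and lowered 23 in macrophages and raised 15 and lowered 20 in hepatocytes, which is 60.4%, 66.7% and 72.9% of the 48 beside the backgrounds given above. Scaled by library totals alone, 23 were called in macrophages, 11 raised and 12 lowered. Their median log2 fold change was −0.20, −0.24 and −0.21. *Smurf1*, a ubiquitin ligase that targets SMADs and receptors, ranked among the top 3 lowered pathway genes by P in each of these cell types, with 128 ± 3.07 to 60.7 ± 0.986 CPM (SD, n = 3) in adipocytes, 52.6 ± 0.982 to 28.2 ± 1.61 CPM in macrophages and 87.1 ± 7.51 to 38.7 ± 1.38 CPM in hepatocytes.

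Among ligands of the BMP branch, *Bmp7* rose in adipocytes from 0.115 ± 0.0507 to 1.47 ± 0.217 CPM (log2 fold change 3.63, SE 0.369, edgeR adjusted p = 7e-10) and in hepatocytes from 0.121 ± 0.0573 to 7.12 ± 0.25 CPM (5.80, SE 0.334, adjusted p = 1.33e-15). *Bmp6* rose in macrophages from 0.543 ± 0.483 to 4.60 ± 0.434 CPM (3.01, SE 0.333, adjusted p = 3e-09), *Bmp4* in hepatocytes from 3.27 ± 0.338 to 15.9 ± 0.668 CPM (2.28, SE 0.212, adjusted p = 7.67e-11) and *Bmp2* in adipocytes from 1.18 ± 0.139 to 3.20 ± 0.259 CPM (1.43, SE 0.174, adjusted p = 2.52e-08). *Tgfb3* fell in macrophages from 59.7 ± 2.38 to 29.4 ± 4.5 CPM (−1.02, SE 0.078, adjusted p = 1.05e-12).

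Receptors and intracellular genes moved in both directions. *Tgfbr2*, the TGF-β type II receptor, fell in adipocytes from 275 ± 3.9 to 151 ± 4.98 CPM (log2 fold change −0.87, SE 0.07, edgeR adjusted p = 3.93e-12), as did *Zfyve9*, which anchors SMADs at endosomes, from 44.7 ± 2.94 to 25.4 ± 0.662 CPM. The activin type I receptor gene *Acvr1b* rose in macrophages from 37.1 ± 0.21 to 59.2 ± 0.498 CPM (0.68, SE 0.079, adjusted p = 9.97e-09), where *Smad3* rose from 16.1 ± 0.768 to 34.2 ± 1.46 CPM (1.09, SE 0.088, adjusted p = 4.22e-12) and *Smad2* fell from 65.5 ± 0.369 to 42.2 ± 1.81 CPM (−0.63, SE 0.055, adjusted p = 1.74e-11). *Ski*, a repressor of SMAD signalling, rose in adipocytes from 134 ± 7.27 to 187 ± 4.22 CPM.

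In hepatocytes *Furin*, a convertase that matures these ligands, fell from 441 ± 20.1 to 177 ± 3.02 CPM (log2 fold change −1.32, SE 0.06, edgeR adjusted p = 5.12e-18), and *Tgif1*, a SMAD corepressor, from 142 ± 5.31 to 38.1 ± 0.396 CPM (−1.90, SE 0.115, adjusted p = 4.32e-15). In myocytes, as a description, 13 of the 48 were beyond 2-fold, 8 higher and 5 lower (27.1%, beside 22.4% of all genes). The lower ones with the largest differences were *Inha*, the inhibin α subunit, from 14.3 ± 2.14 to 3.75 ± 0.548 CPM, *Bmp2* from 18.2 ± 1.31 to 5.41 ± 0.436 CPM and *Tgif1* from 51.3 ± 3.06 to 20.4 ± 4.9 CPM. The higher ones were *Bmp7*, *Bmp4* and *Bmp6*, at 2.07 ± 0.663, 4.31 ± 0.926 and 9.83 ± 3.95 CPM with butyrate against 0.298 ± 0.0737, 0.787 ± 0.308 and 1.98 ± 0.157 CPM in controls.

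Under βOHB 0 of the 48 pathway genes were called by edgeR, limma-voom or DESeq2 in any cell type. An unadjusted p below 0.05 was reached by 2 in myocytes, 3 in hepatocytes and 1 each in adipocytes and macrophages, where 13.7%, 5.51%, 7.15% and 2.33% of all genes reached it, so nothing is read from these counts. Without the third βOHB library of myocytes 1 was called, *Bambi*, a decoy receptor (log2 fold change 0.55, edgeR adjusted p = 0.0203), compared with 0.42 (adjusted p = 0.108) with all libraries. That library stood apart in the hepatocyte markers, which summed to 27.2 CPM in it, to 0.138 and 0.0444 CPM in the other βOHB libraries and to at most 0.176 CPM in controls, and their part in this value was not tested.

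The genes whose mean log2 CPM followed each member most closely over the 12 groups were then listed, where the points share libraries and are dominated by cell type. *Fst* was most like *Zfp428* (Pearson r = 0.959), *Dcaf8* (0.951), *Zfp768* (0.948), *Polr1a* (0.948) and *Pigw* (0.948). *Fstl1* followed the matrix genes *Efemp2* (r = 0.999), *Lox* (0.997) and *Col5a3* (0.995), and *Mstn* the myocyte-restricted AC121603.3 (1), Gm3002 (0.999) and *Tecrl* (0.999). *Gdf11* was most like *Cfap36* (0.995), *Grasp* (0.982) and *Plagl1* (0.982), *Fstl3* like *Dzip1* (0.980), *Nr4a3* (0.976) and *Pard6g* (0.973), and *Inhba* like *Fut4* (0.975), *Zfp934* (0.970) and *Zbtb38* (0.967). For *Inhbb* they were AL731706.1 (0.977), *Smo* (0.953) and *Cc2d2a* (0.950), for *Acvr2a* *Atp5j* (0.993), *Utrn* (0.982) and *Ndufa5* (0.980), and for *Acvr2b* *Nt5c3b* (0.950), *Msto1* (0.924) and *Asb3* (0.917).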

How the data were processed

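The authors made estimated counts per gene with Salmon 1.2.1 on GENCODE M25 transcripts (GRCm38.p6), summed with tximport, from paired-end reads, and deposited them in 1 table. The methods state that estimates were scaled to length and depth, and whether the deposited table holds scaled values was not tested. The rounded counts of all 36 libraries entered the quasi-likelihood test of edgeR 4.0.16 under R 4.3.3 with TMM factors and a mean per group, over the 15340 genes above 1 CPM in at least 6 libraries, with Benjamini-Hochberg adjustment in each comparison. The study used limma on its own filter, at P below 0.001. Log2 CPM used a prior count of 2. No repeat library was seen (chi-square per gene 2.54 to 42.4 over 36 replicate pairs). Symbols, positions and exon lengths came from GENCODE M21, which held 54094 of the 54347 genes, and promoters from RefSeq. Intervals are 95%.

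The 9 genes, the pathway list, the marker lists and the tests were chosen with earlier results of these data known. Named were all 9 genes, for each comparison up to 3 raised and 3 lowered pathway genes of smallest P among those called whose treated libraries all lay on the same side of the controls (in butyrate myocytes, of largest difference beyond 2-fold), and the 3 genes (5 for *Fst*) of highest Pearson r over the 12 group means. A gene under this rule is not reported here. *Bambi* was named after its value was seen. Alternatives were limma-voom (limma 3.58.1), DESeq2 1.42.0, RLE scaling, library totals alone, no low-count filter, more than 20 counts in at least 6 libraries, only the cell types compared, a replicate block, unadjusted P below 0.001 and each library left out. The test was run on simulated data first.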

Additional observations from a re-analysis of the deposited data

Results flagged for a closer look

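The butyrate response of several genes differed between cell types by a test of the difference itself (edgeR interaction terms, values as differences of log2 fold changes, adjusted over all genes tested). Hepatocytes minus adipocytes gave 1.93 for *Fstl3*, 1.24 for *Fst*, 2.86 for *Gdf11*, 1.66 for *Inhba* and 0.85 for *Acvr2a*. Hepatocytes minus macrophages gave 2.05 for *Fstl3*, 2.44 for *Gdf11* and 0.65 for *Acvr2a*. Adipocytes minus macrophages gave −1.53 for *Fst*, −0.42 for *Gdf11* and −1.06 for *Inhba*. The response of *Acvr2a* had opposite signs in hepatocytes (0.37) and adipocytes (−0.47), both called. Groups of 3 libraries are too small for a test of outlying samples.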

How the results depend on the processing

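Most results did not move with the processing. Of 364 recomputed counts of called genes 362 stayed within 1.5 times the reported count, many of them βOHB counts that were 0 in both fits. At an unadjusted P below 0.001, the threshold of the study, 4 of the 9 genes (2 raised, 2 lowered) were called under butyrate in hepatocytes in place of 8. The share of all genes at that threshold is not given here, so nothing is read from this count about the 9 genes. Without the third βOHB library of myocytes 1 pathway gene was called under βOHB in place of 0. No called value changed sign. Over 1740 recomputed log2 fold changes, 22 lost a call, 13 gained a call and 37 moved otherwise, by a change of sign in a value that was not called or, in butyrate myocytes, by more than the spread between libraries; the cause was not tested. The calls lost or gained were of *Acvr2a*, *Acvr2b* and *Fstl1* under butyrate or between the compounds, and of *Fstl1*, *Inhba*, *Inhbb* and *Gdf11* between cell types.

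Leaving out 1 library at a time, members called under butyrate numbered 6 in adipocytes each time, 6 to 8 in macrophages and 7 to 8 in hepatocytes, and those called for butyrate minus βOHB 6 to 7, 5 to 8 and 7 to 8. Pathway genes called under butyrate numbered 27 to 30, 26 to 29 (each time below the reported 32 in macrophages) and 33 to 35. Under βOHB in myocytes they numbered 0 to 1. The replicate number as a block within cell type gave 6 of the 9 genes in adipocytes, 6 in macrophages and 8 in hepatocytes under butyrate and 0 under βOHB in every cell type. Deviations of same-numbered libraries correlated between −0.216 and 0.225 over 24 pairs of groups and libraries, and those of other numbers between −0.341 and 0.235. In butyrate adipocytes the values were 0.016 to 0.054 for the same number and −0.053 to 0.011 for other numbers. With 3 libraries a group, these values cannot show whether the numbers pair the samples.

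Scaling by library totals alone moved the all-gene median log2 fold change by 0.20 in butyrate macrophages and 0.13 in butyrate myocytes, and called 23 pathway genes in macrophages (11 raised, 12 lowered) where the reported count was 32, while group levels by TMM against other scalings stood at ratios of 0.845 to 1.19. Low levels limit *Acvr2b* in all cells, *Gdf11* in control hepatocytes and *Mstn*. Intervals and SE rest on a spread per gene estimated over all 36 libraries, not on the groups compared alone. They can therefore be wider or narrower than the spread of those groups. For *Inhba* in butyrate myocytes the SE was 0.182, while the log2 CPM of those 3 libraries had an SD of 0.5.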
